A study of Rattus norvegicus with 6 samples.

Results

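Fibrillar collagen genes encode the chains of the banded collagen fibrils that give scar and connective tissue their tensile strength. They were taken by name, as the rows of the expression table whose symbol was Col1a1, Col1a2, Col3a1, Col5a1, Col5a2, Col5a3, Col11a1, Col11a2, Col24a1 or Col27a1, and all 10 were found among its 19616 genes. The RNA came from liver tissue of male SD rats, with 1 library per rat and ribosomal RNA removed, and the comparison asked which genes differed between fibrotic and control liver. Rats of the FL group (FL2, FL5 and FL12) had been injected intraperitoneally with carbon tetrachloride (CCl4, whose breakdown in hepatocytes damages them and, when repeated, leads to fibrosis) mixed with an equal part of olive oil, at 2 mL per kg of body weight, 2 times a week for 5 weeks. Rats of the CL group (CL5, CL6 and CL7) had been given olive oil alone in that volume, and CL5 and FL5 are different rats. The ages of the rats were not given in the sources used here. Each of the 7 hepatocyte markers examined was above 0 in every rat, with Alb, which encodes albumin, at 24149 to 33392 FPKM.

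Fibrillar collagens are made as procollagen chains that wind into a trimer inside the cell, are secreted, lose their end propeptides and then line up into fibrils that are crosslinked. Type I collagen joins chains of Col1a1 and Col1a2, type III collagen is built from Col3a1 chains alone, and types V and XI lie inside the larger fibrils and set how they start and how thick they become. In injured liver, stellate cells that have turned into myofibroblasts, together with portal fibroblasts, are the known main makers of these chains.

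Levels are FPKM, in which the fragments mapped to a gene are scaled to its transcript length and to the size of the library. This is meant to let levels of different genes be set side by side, and whether it does so for each gene here was not tested. Fold changes are differences between group means of log2(FPKM + 0.1), which come out too small for genes at low FPKM, and the tests are limma's with p-values adjusted over the 14864 genes that averaged at least 0.1 FPKM over the 6 rats. A gene was called a differentially expressed gene (DEG) when it changed at least 2-fold with an adjusted p under 0.05. Of the 10 fibrillar collagen genes, 8 reached the minimum, and Col1a2 and Col11a2 did not. Among the 8, Col1a1, Col3a1, Col5a1, Col5a2 and Col11a1 were called higher in the FL group, where 9.29% of all genes tested were. Col27a1 was called lower, as were 0.935% of all genes tested. Col5a3 and Col24a1 were not called. All 3 FL rats lay above all 3 CL rats in 5 of the 8, against 35.7% of all genes tested, and below them in 1, against 4.78%. Col11a1 reached the minimum only through the FL rats, so its place among the 8, and in their median below, already depended on a difference. Col24a1 had a CL mean of 0.0967 FPKM and an FL mean of 0.110, so it too reached the minimum through the FL rats. The median log2 fold change was 1.74 for the 8 and 0.29 for all genes tested. With median scaling the latter became 0.08 and with quantile normalization -0.04, and the directions given for the called genes held under both. In bulk tissue, more cells of a type and more RNA per cell cannot be told apart.

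**Figure D1:**
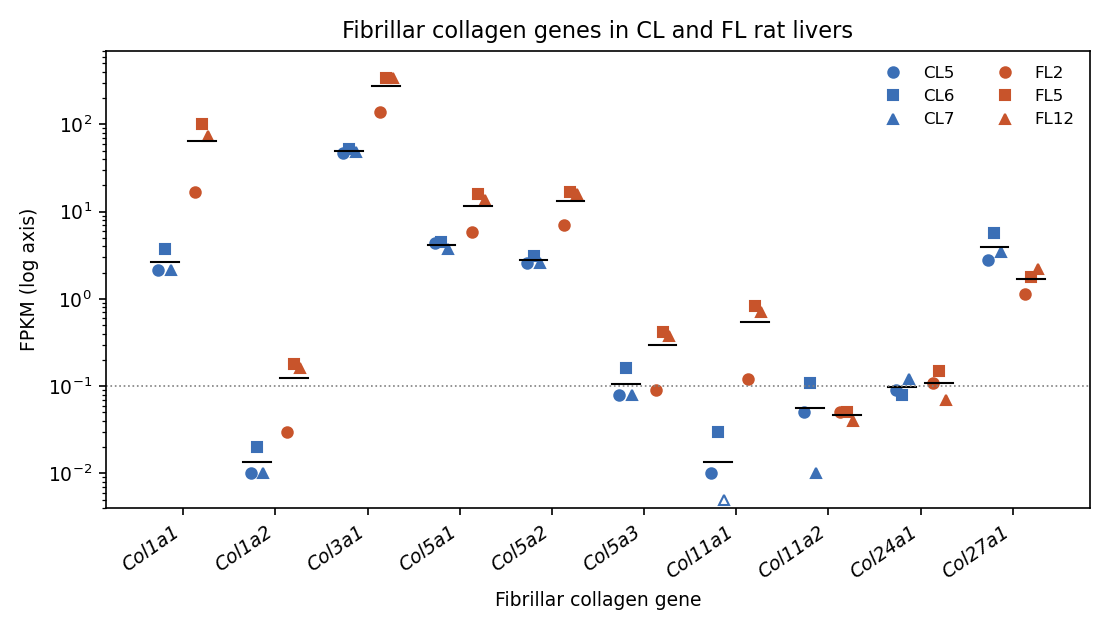
FPKM of the 10 fibrillar collagen genes in each rat, on a log axis, with CL rats in blue and FL rats in orange. Black bars are group means, the dotted line is the minimum mean of 0.1 FPKM, and the open triangle marks CL7, which was listed at 0 for Col11a1. FL rats lay above CL rats for Col1a1, Col1a2, Col3a1, Col5a1, Col5a2 and Col11a1, and below them for Col27a1.

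Col1a1 (ENSRNOG00000003897, chromosome 10) encodes the α1 chain of type I collagen, the main collagen of scar. FPKM stood at 2.12 in CL5, 3.77 in CL6 and 2.12 in CL7, against 17.0 in FL2, 101 in FL5 and 73.7 in FL12. Every FL rat lay above every CL rat, and within the FL group FL2 stood low, with FL5 at 5.95 times its level. In the test over all genes it had a log2 fold change from limma of 4.24 (95% interval 2.85 to 5.62, standard error 0.60, adjusted p = 0.00519, n = 3 rats per group), or 3.95 above the median of all genes. Without FL2 it was 5.02 (adjusted p = 0.000541), and without any 1 rat it ran from 3.73 to 5.02, with adjusted p over the alternatives from 0.000541 to 0.0376. Compared with the CL mean, the FL rats were 6.37, 37.9 and 27.6 times higher in the order FL2, FL5 and FL12. By its group mean, Col1a1 was in place 7075 of the 19616 genes in the CL group and in place 490 in the FL group.

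Col1a2 (ENSRNOG00000011292, chromosome 4) encodes the α2 chain, which joins α1 chains in the usual type I trimer. It was listed at 0.01 FPKM in CL5 and CL7 and 0.02 in CL6, and at 0.03 in FL2, 0.18 in FL5 and 0.16 in FL12. All FL rats were above all CL rats here too, in the same order among themselves as for Col1a1, but each value was close to the last decimal given. The mean of 0.0683 FPKM was under the minimum, so Col1a2 was not tested. In a fit of all 19616 genes without the minimum, limma gave a log2 fold change of 0.90 with a standard error of 0.32 (adjusted p = 0.141).

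The ratio of Col1a1 to Col1a2 FPKM was 212, 189 and 212 in CL5, CL6 and CL7, and 567, 562 and 461 in FL2, FL5 and FL12. Rounding to 2 decimals alone would let the ratio lie anywhere from 141 to 425 in CL5 and CL7, from 151 to 252 in CL6, and from 447 to 680 over the FL rats. Thus Col1a2 was listed at a level more than 100 times below that of its partner chain in every rat of both groups, and the reason was not tested. Between the groups the ratio differed by 1.37 on the log2 scale (exact permutation test over the 6 rats, two-sided, p = 0.1), and by 3.34 with 0.1 added to each FPKM. Its neighbours on the chromosome in RefSeq were measured at ordinary levels. Bet1, a gene for a vesicle transport protein, lay between 8.36 and 11.0 FPKM in CL rats and between 10.3 and 16.2 in FL rats, and Casd1, which encodes a sialic acid acetyltransferase, between 5.44 and 6.52 and between 5.38 and 5.64. They were chosen for their position after the level of Col1a2 had been seen.

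Col3a1 (ENSRNOG00000003357, chromosome 9) encodes the only chain of type III collagen, which forms fine reticular fibres in liver. CL5 had 46.5 FPKM of it, CL6 51.8 and CL7 48.7, whereas FL2 had 140, FL5 342 and FL12 339 FPKM. The CL rats lay close together, FL5 and FL12 were nearly equal, and FL2 stood between them and the CL group with no overlap. By limma, FL exceeded CL by 2.37 on the log2 scale (standard error 0.32, 95% interval 1.62 to 3.11, adjusted p = 0.00490). Col3a1 was the most abundant fibrillar collagen gene in every rat, and its group mean moved from place 613 to place 114 among all genes.

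Col5a1 (ENSRNOG00000008749, chromosome 3) encodes the α1 chain of type V collagen, on which the start of type I fibrils depends. Its level was 4.32 FPKM in CL5, 4.51 in CL6 and 3.78 in CL7, compared with 5.91 in FL2, 15.8 in FL5 and 13.5 in FL12. FL2 was only 1.41 times the CL mean, whereas FL5 and FL12 were 3.76 and 3.20 times as high, and the groups did not overlap. In the test over all genes it had a log2 fold change from limma of 1.35 (95% interval 0.58 to 2.11, standard error 0.33, adjusted p = 0.0291). The call was lost without any 1 of CL5, CL6, CL7, FL5 and FL12 (adjusted p = 0.0692 to 0.102), with median scaling (log2 fold change 1.12, adjusted p = 0.0536) and with quantile normalization (1.09, adjusted p = 0.0759). It was also lost without the minimum of 0.1 FPKM (adjusted p = 0.0960) and without a prior variance that follows the mean (adjusted p = 0.0605), with adjusted p over the alternatives from 0.00144 to 0.102.

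Col5a2 (ENSRNOG00000003736, chromosome 9) encodes the α2 chain of type V collagen. FPKM stood at 2.57 in CL5, 3.11 in CL6 and 2.61 in CL7, against 7.07 in FL2, 17.0 in FL5 and 16.0 in FL12. The order of the rats was that of Col3a1, with FL5 and FL12 close together, FL2 lower and no overlap with the CL group. By limma, FL exceeded CL by 2.14 on the log2 scale (standard error 0.31, 95% interval 1.42 to 2.86, adjusted p = 0.00565). Col5a2 and Col3a1 are next to each other among the protein-coding genes of chromosome 9 in RefSeq. On their outer sides, Gulp1 averaged 0.287 and 0.643 FPKM and Wdr75 averaged 3.24 and 3.91 FPKM in the CL and FL groups, and neither was a DEG. Beside the fibrillar collagen genes other than Col1a2, Col3a1 and Col5a2, 7 neighbours were tested. Of these, Fcnb beside Col5a1 (log2 fold change 1.68, adjusted p = 0.0270 from limma), Odf2l beside Col24a1 (1.02, adjusted p = 0.0394) and Kif12 beside Col27a1 (2.29, adjusted p = 0.00262) were called higher, where 9.29% of all genes tested were. Rxra (0.05), Rxrb (0.14), Znhit6 (0.18) and Orm1 (2.22, adjusted p = 0.0885) were not called. Bet1 (0.42, adjusted p = 0.156 from limma) and Casd1 (-0.11, adjusted p = 0.555) beside Col1a2 were also tested and not called. These were likewise chosen for their position, after the values of the collagen genes had been seen.

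Col5a3 (ENSRNOG00000020525, chromosome 8) encodes the α3 chain of type V collagen, which has a narrower range of tissues. CL5 had 0.08 FPKM of it, CL6 0.16 and CL7 0.08, whereas FL2 had 0.09, FL5 0.42 and FL12 0.38 FPKM. FL5 and FL12 were above every CL rat, but FL2 was at the level of CL5 and CL7 and below CL6, so the groups overlapped. By limma it had a log2 fold change of 0.83 with a standard error of 0.49 and no call (adjusted p = 0.255), and 0.22 with 1 added to each FPKM in place of 0.1 (adjusted p = 0.239). Without FL2 it was 1.30 and it was called (adjusted p = 0.0479, with adjusted p over the alternatives from 0.0479 to 0.674).

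Col11a1 (ENSRNOG00000023148, chromosome 2) encodes the α1 chain of type XI collagen, best known from cartilage and also made by activated fibroblasts. CL5 was at 0.01 FPKM, CL6 at 0.03 and CL7 was listed at 0, whereas FL2 had 0.12, FL5 0.82 and FL12 0.70 FPKM. All FL rats were above all CL rats, and FL5 was at 6.83 times the level of FL2. In the test over all genes it had a log2 fold change from limma of 2.27 (95% interval 0.92 to 3.63, standard error 0.59, adjusted p = 0.0341), on a scale where the 0.1 added is larger than any CL value. With 1 added instead it was 0.58 and the call was lost (adjusted p = 0.0610), with 0.01 added it was 4.41 (adjusted p = 0.0273), and without FL2 it was 2.93 (adjusted p = 0.00479). The call was also lost with quantile normalization (1.88, adjusted p = 0.0669), without the minimum of 0.1 FPKM (adjusted p = 0.0783) and without any 1 of CL5, CL6, CL7, FL5 and FL12 (adjusted p = 0.0746 to 0.121, with adjusted p over the alternatives from 0.00479 to 0.121).

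Col11a2 (ENSRNOG00000000463, chromosome 20) encodes the α2 chain of type XI collagen and is strongest in cartilage. Its level was 0.05 FPKM in CL5, 0.11 in CL6 and 0.01 in CL7, compared with 0.05 in FL2, 0.05 in FL5 and 0.04 in FL12. The FL values fell inside the range of the CL values, and with a mean of 0.0517 FPKM the gene was not tested. Of 8 cartilage genes examined, 5 had a row, only Ucma reached the minimum (0.237 and 0.360 FPKM in the CL and FL groups), and it was not a DEG. The 5 summed to 0.25 to 0.31 FPKM in the CL rats and to 0.37 to 0.63 FPKM in the FL rats.

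Col24a1 (ENSRNOG00000014143, chromosome 2) encodes a fibrillar collagen known mainly from bone and cornea. FPKM stood at 0.09 in CL5, 0.08 in CL6 and 0.12 in CL7, against 0.11 in FL2, 0.15 in FL5 and 0.07 in FL12. The lowest and the highest value were both in the FL group, and the mean of 0.103 FPKM was just over the minimum. Its log2 fold change from limma was 0.08, with a standard error of 0.40 (adjusted p = 0.901), and its sign turned with median scaling (-0.03) and quantile normalization (-0.37).

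Col27a1 (ENSRNOG00000007657, chromosome 5) encodes a fibrillar collagen of thin fibrils, known mainly from developing cartilage. CL5 had 2.80 FPKM of it, CL6 5.63 and CL7 3.43, whereas FL2 had 1.13, FL5 1.78 and FL12 2.20 FPKM. It was the single fibrillar collagen gene with every FL rat below every CL rat, and CL6 stood high within its group. Its log2 fold change from limma was -1.15 (95% interval -1.87 to -0.44, standard error 0.31, adjusted p = 0.0389), or -1.44 relative to the median of all genes. With median scaling it was -1.37 (adjusted p = 0.0246) and with quantile normalization -1.55 (adjusted p = 0.0184). The call was lost without any 1 of CL6, CL7, FL2 and FL5 (adjusted p = 0.0694 to 0.103), with 1 added to each FPKM in place of 0.1 (-0.85, under a 2-fold change, adjusted p = 0.0442), without the minimum of 0.1 FPKM (adjusted p = 0.107) and without a prior variance that follows the mean (adjusted p = 0.0683), with adjusted p over the alternatives from 0.0184 to 0.107. In the CL group its mean of 3.95 FPKM was above those of Col1a1 (2.67 FPKM) and Col5a2 (2.76 FPKM), and in the FL group its mean of 1.70 FPKM was far below theirs (64.0 and 13.4 FPKM).

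**Figure D2:**
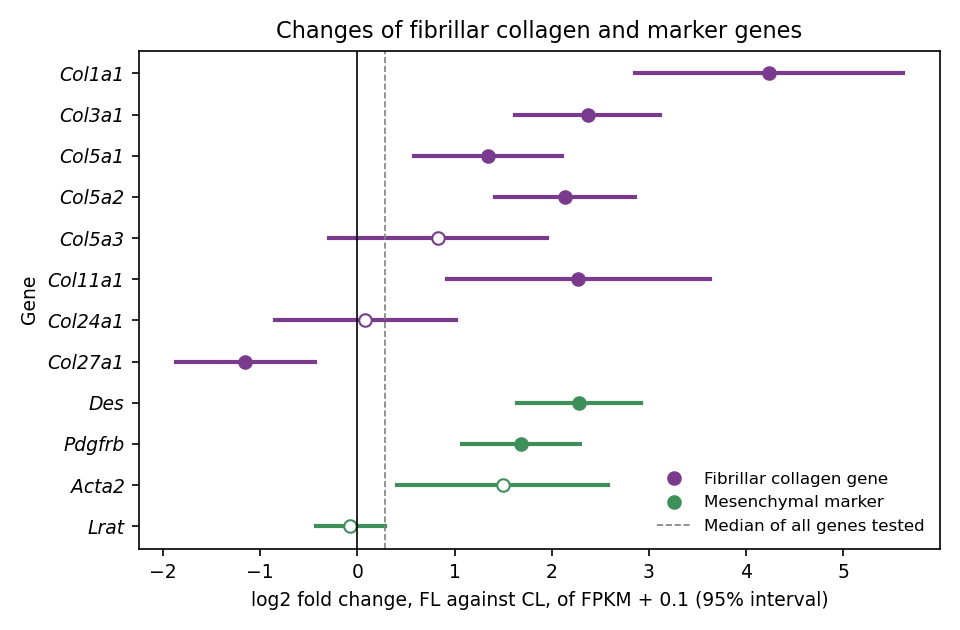
Log2 fold changes of the FL against the CL group, on the log2(FPKM + 0.1) scale, for the 8 fibrillar collagen genes tested (purple) and 4 markers of stellate cells and other mesenchymal cells (green). Lines are 95% intervals from limma with 3 rats per group, filled points are DEGs, and the dashed line is the median of all genes tested, 0.29. Col27a1 lay on the other side of 0 from the 5 collagen genes that were called higher.

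Within the FL group the rats kept a similar order from gene to gene. FL2 was the lowest FL rat for 8 of the 10 fibrillar collagen genes, and FL5 was the highest, alone, for 8. Of all 1381 genes called higher, FL2 was the lowest in 67.5% and FL5 the highest in 45.3%, and of all genes tested the shares were 51.2% and 35.9%. The 5 fibrillar collagen genes called higher each had FL2 lowest and FL5 highest. Col27a1 was lowest in FL2 as well, but highest in FL12.

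Added over the 10 genes, the fibrillar collagen level was 58.6 FPKM in CL5, 69.2 in CL6 and 60.8 in CL7, against 172 in FL2, 479 in FL5 and 445 in FL12. The groups did not overlap, and FL5 and FL12 stood well above FL2. On the log2 scale the difference was 2.41, or 5.30-fold (exact permutation test over the 6 rats, two-sided, p = 0.1, which is as low as a 3 against 3 design can give, with adjusted p = 0.1 over this sum and 5 ratios between chains, that of Col1a1 to Col1a2 above and the 4 below). Such a test cannot pass 0.05 here, so the ratios are read by whether the groups overlap.

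Col3a1 made up 79.4%, 74.8% and 80.0% of this sum in CL5, CL6 and CL7, and 81.7%, 71.3% and 76.0% in FL2, FL5 and FL12. The share of Col3a1 therefore overlapped between the groups, although its level was higher in every FL rat. Col1a1 made up 3.62%, 5.45% and 3.49% in the CL rats and 9.89%, 21.1% and 16.6% in the FL rats, without overlap. The share of Col5a1 went the other way, from 6.22% to 7.37% in the CL rats to 3.02% to 3.44% in the FL rats. The level of Col5a1 was nevertheless higher in every FL rat. For Col27a1 the share was 4.78%, 8.13% and 5.64% in CL5, CL6 and CL7 and 0.657%, 0.372% and 0.494% in FL2, FL5 and FL12. The CL livers thus held Col27a1 and Col5a1 as the next most abundant chains after Col3a1, with Col5a1 ahead of Col27a1 in CL5 and CL7 and behind it in CL6, whereas Col1a1 was second to Col3a1 in each FL rat. The sum, the shares and these places take Col1a2 at its listed level, which was at most 0.0376% of the sum in any rat, and would differ if that level were wrong.

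Type I and type III collagen are laid down in the same fibrils. The ratio of Col3a1 to Col1a1 FPKM was 22.0, 13.7 and 22.9 in CL5, CL6 and CL7, and 8.26, 3.38 and 4.59 in FL2, FL5 and FL12. Every FL rat was below every CL rat, and the log2 difference was -1.92 (exact permutation test over the 6 rats, two-sided, p = 0.1).

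Type V collagen is assembled with type I in the same fibrils, so its chains were also set against Col1a1. The ratio of Col5a1 to Col1a1 was 2.04, 1.20 and 1.78 in the CL rats and 0.348, 0.156 and 0.183 in the FL rats, a log2 difference of -2.93. For Col5a2 to Col1a1 it was 1.21, 0.825 and 1.23 in the CL rats and 0.416, 0.168 and 0.217 in the FL rats, a log2 difference of -2.11. Neither ratio overlapped between the groups (exact permutation p = 0.1 for each, two-sided), and FL5 had the lowest value of both. Col5a1 and Col5a2 were thus above or near the level of Col1a1 in the CL livers and under 0.5 times its level in each FL liver.

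Chains of Col5a1 and Col5a2 share the common type V trimer. Their ratio was 1.68, 1.45 and 1.45 in CL5, CL6 and CL7, and 0.836, 0.928 and 0.843 in FL2, FL5 and FL12. It varied little within a group, lay above 1 in each CL rat and below 1 in each FL rat, and had a log2 difference of -0.81 (exact permutation test over the 6 rats, two-sided, p = 0.1). A ratio within a rat does not depend on the scaling between rats.

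**Figure D3:**
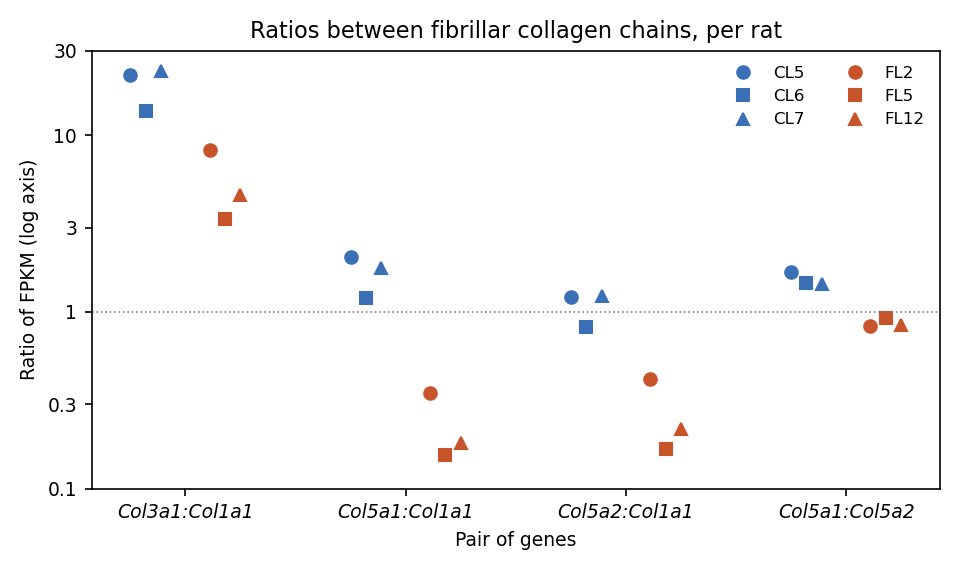
Ratios of FPKM between fibrillar collagen chains in each rat, on a log axis, with CL rats in blue and FL rats in orange. The dotted line marks equal levels. In all 4 ratios the FL rats lay below the CL rats, and Col5a1 to Col5a2 passed from 1.45 to 1.68 in the CL rats to 0.836 to 0.928 in the FL rats.

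Col1a1 was set against 4 markers of the cells that make it. Des, which encodes desmin of stellate and muscle cells, had 0.83, 1.06 and 1.58 FPKM in CL rats and 4.18, 7.16 and 6.60 in FL rats (log2 fold change 2.28, adjusted p = 0.00394 from limma, standard error 0.28, and 1.68 with 1 added to each FPKM). The ratio of Col1a1 to Des was 2.55, 3.56 and 1.34 in CL5, CL6 and CL7, and 4.07, 14.1 and 11.2 in FL2, FL5 and FL12, so the groups were separate but FL2 lay close to CL6. Pdgfrb, the PDGF receptor of mesenchymal cells, had a log2 fold change from limma of 1.69 (adjusted p = 0.00688, standard error 0.26), and the ratio of Col1a1 to it was 0.673 to 1.48 in the CL rats and 2.83 to 10.4 in the FL rats. Acta2, the smooth muscle actin of myofibroblasts, had 3.85, 2.62 and 2.68 FPKM in CL rats and 3.87, 17.3 and 9.59 in FL rats, with FL2 at the level of CL5 (log2 fold change 1.496, adjusted p = 0.0609, standard error 0.47, and adjusted p = 0.00607 without FL2, from 0.00607 to 0.172 over the alternatives). Col1a1 to Acta2 was nevertheless 0.551 to 1.44 in the CL rats and 4.39 to 7.69 in the FL rats. Lrat, the enzyme by which stellate cells store vitamin A, lay at 7.18 to 9.77 FPKM in CL rats and 7.11 to 8.91 in FL rats and was not a DEG (log2 fold change -0.07, adjusted p = 0.758). The log2 difference of Col1a1 relative to these markers was 1.91 for Des, 2.57 for Pdgfrb, 2.77 for Acta2 and 4.36 for Lrat (5.05 without FL2), with no overlap between groups (exact permutation p = 0.1 for each, two-sided, and adjusted p = 0.1 over the 4). Each of these ratios carries the difference in Col1a1 itself, so its lack of overlap is not a separate result about the marker.

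Of 9 stellate cell or myofibroblast markers, all of them tested, 4 were called higher (Des, Rgs5, Vim and Pdgfrb) and 0 lower, and their median log2 fold change was 1.496. Over all genes tested, 9.29% were called higher and 0.935% lower. Their summed level was 60.0 FPKM in CL5, 53.3 in CL6 and 49.2 in CL7, against 101 in FL2, 194 in FL5 and 146 in FL12, and Vim was the most abundant. The FL rats thus stood in the same order as for Col1a1, but other lists below shared this order. Within the list, Pdgfrb was highest in FL12 (13.1 FPKM) and Rgs5 was lowest there (22.4 FPKM). Of 5 portal fibroblast markers, Eln and Entpd2 were called higher, Eln was the most abundant, and the sum was 3.47, 3.87 and 3.78 FPKM in the CL rats and 10.1 in FL2, 22.5 in FL5 and 29.4 in FL12. The 6 macrophage markers, 3 of them called higher (Marco, Cd68 and Csf1r) and with Clec4f the most abundant, summed to 88.7 to 93.2 FPKM in the CL rats and to 218 in FL2, 194 in FL5 and 119 in FL12. The hepatocyte list, with 0 of 7 called and Alb the most abundant, summed to 42203 to 44633 FPKM in the CL rats and to 33326 to 35520 FPKM in the FL rats. Its median log2 fold change was 0.03, against 1.15 for the portal fibroblast and 0.93 for the macrophage list. Alb averaged 32272 and 24803 FPKM in the CL and FL groups and made up most of the sum. Named after their values had been seen, Ttr averaged 5779 and 3760 FPKM, Apoa1 1149 and 1919 FPKM, and Tat 72.4 and 131 FPKM. In these 4 lists no marker was listed at 0 in all rats. Their part in the collagen results was not tested.

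Of the other marker lists, 1 of 5 cholangiocyte markers (Spp1, which macrophages also make, and the most abundant) and 1 of 4 cycling cell markers (Mki67, likewise) were called higher. Of 4 mesothelial markers (Gpm6a the most abundant), 4 endothelial markers with a row (Kdr) and 4 lymphocyte markers tested of 6 (Cd8a), 0 were called. The median log2 fold changes were 0.33 for cholangiocytes, 1.37 for cycling cells, -0.56 for mesothelial cells, 0.31 for endothelial cells and 0.62 for lymphocytes. Of all genes tested, 9.29% were called higher and the median was 0.29.

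Genes whose proteins act on fibrillar collagen chains inside the cell came next. Of 20 genes for folding and modification of the chains, 19 were tested and 4 were called higher and 0 lower, with a median log2 fold change of 0.49, where 9.29% of all genes tested were called higher. The 4 were Plod2 (2.69), a lysyl hydroxylase that prepares chains for crosslinking, Fkbp10 (2.33), a prolyl isomerase that acts with it, and Crtap (1.17) and P3h3 (1.01), of the prolyl and lysyl hydroxylation complexes. P4hb, the most abundant of the list and a subunit of prolyl 4-hydroxylase, averaged 223 and 343 FPKM and was not a DEG. Serpinh1, the chaperone of procollagen, was singled out after its values had been seen. It had 9.18, 7.78 and 8.27 FPKM in CL rats and 10.9, 25.1 and 17.5 in FL rats, and fell just short of a 2-fold change (log2 fold change 0.999, adjusted p = 0.0385 from limma).

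Among genes that act on procollagen outside the cell, 3 of 5 tested for cleavage of the propeptides were called higher, namely Pcolce (2.91), which enhances removal of the C-propeptide, and Adamts2 (2.64) and Adamts14 (1.19), which remove N-propeptides. Bmp1, the C-proteinase and the most abundant of them, was not called (19.8 and 23.8 FPKM). Of the 5 crosslinking genes Loxl1 (3.18) and Loxl2 (1.29) were called higher. Lox itself, singled out after its values had been seen, overlapped between the groups, with 0.88 to 3.14 FPKM in the CL rats and 1.59 to 5.86 FPKM in the FL rats. Of 5 tested genes for fibril-associated collagens, Col16a1 (1.92) was called higher, and Col14a1, the most abundant, moved from 9.11 to 17.3 FPKM without reaching a 2-fold change (log2 fold change 0.90, adjusted p = 0.0126). Of 7 tested rows for fibril-binding proteoglycans, 4 were called higher, those of Lum (2.44), Aspn (2.28, in 1 of its 2 rows), Dcn (2.28) and Bgn (1.46), which was the most abundant. Aspn (0.0733 FPKM in the CL group and 0.727 in the FL group in that row) reached the minimum only through the FL rats, as Col11a1 did.

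Among 7 tested genes for collagen receptors, Mrc2 (2.52), which takes up collagen for breakdown, was called higher, and Itgb1 was the most abundant (20.5 and 34.0 FPKM). Of 5 tested genes for proteases that degrade collagen, Mmp2 (2.45) and Ctsk (1.71) were called higher, and Mmp14, the most abundant, moved from 24.4 to 39.9 FPKM, under a 2-fold change (log2 fold change 0.70, adjusted p = 0.00531). The median log2 fold changes of these lists were 1.19 for propeptide cleavage, 0.98 for crosslinking, 0.90 for fibril-associated collagens, 1.46 for proteoglycans, 0.71 for receptors and 1.43 for proteases, against 0.29 for all genes tested, and 0 genes of these lists were called lower. The counts called higher, 3 of 5, 2 of 5, 1 of 5, 4 of 7, 1 of 7 and 2 of 5 in that order, stand against the same 9.29%. These medians also include genes that reached the minimum only through the FL rats and were not called, namely Adamts3 (0.05 FPKM in the CL and 0.230 in the FL group), Col20a1 (0.0900 and 0.137), the other row of Aspn (0.01 and 0.227), Lair1 (0.0867 and 0.18) and Mmp9 (0.0467 and 0.273). The same holds for P3h4 (0.0733 and 0.303) in the folding list and for Wt1 (0.0900 and 0.383) among the mesothelial markers. These genes are named here after their values had been seen. For genes called higher in these lists and the folding list, a single value in parentheses is the log2 fold change from limma. Each of these genes had an adjusted p under 0.05. Pairs of values without a label are mean FPKM in the CL and FL groups.

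The genes whose profile over the 6 rats was most like that of Col1a1, by the root mean square difference of centred log2(FPKM + 0.1) values over 10535 genes averaging at least 1 FPKM, were Postn (0.209), Ncam1, LOC100361492, Trem2 and Spp1 (0.571). Postn, which encodes a matrix protein that binds collagen, had 0.01, 0.07 and 0.05 FPKM in CL rats and 0.66, 5.44 and 3.72 in FL rats. Among the other fibrillar collagen genes, Col3a1 was in place 50 by likeness to Col1a1, Col5a2 in place 80 and Col5a1 in place 310. For Col3a1 the nearest gene was Col5a2, its neighbour on chromosome 9 (0.129), followed by Hdgfrp3, Fkbp10, Hacd4 and Gpx7 (0.156). For Col27a1 the nearest were Xk (0.259), U1, Slc46a1, Nlrp12 and AABR07034393.1 (0.296), and Col1a1 was in place 10515 of the list. Except for Spp1 and Col5a2, the genes nearest to Col1a1 and Col3a1 had CL means of 0.0433 to 0.600 FPKM and FL means of 1.92 to 5.81 FPKM. They entered this comparison only through the FL rats, so part of their likeness to a gene higher in the FL group came with the minimum of 1 FPKM. These orders are descriptions and moved with the value added before the log, since with 1 in place of 0.1 the nearest 5 shared 1 gene for Col1a1, 0 for Col3a1 and 3 for Col27a1.

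The 250 bases before the start annotated in RefSeq (build GRCr8) were held for 8 of the 10 fibrillar collagen genes, not for Col1a1 and Col3a1. Whether transcription begins at that start was not tested, so a window may include transcribed bases. Of the 4 members with a window that begins at the outer end of the gene, Col24a1, which was not called, is left out. The others are Col1a2, the chain listed near 0, and Col5a2 and Col11a1, which were called higher. Col1a2 (chr4:33518307-33518556, plus strand) and Col11a1 (chr2:204508886-204509135, plus strand) hold matches in capitals to CCAAT (which on the other strand reads ATTGG), to TATAAA or to GGGCGG, and Col5a2 (chr9:55090152-55090401, minus strand) holds none. Sequences run 5′ to 3′ on the strand of the gene.
Col1a2: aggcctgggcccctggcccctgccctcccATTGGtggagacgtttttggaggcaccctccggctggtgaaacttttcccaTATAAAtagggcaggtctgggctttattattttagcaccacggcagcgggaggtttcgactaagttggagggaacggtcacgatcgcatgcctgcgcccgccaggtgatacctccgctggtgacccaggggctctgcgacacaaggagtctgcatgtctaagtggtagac
Col5a2: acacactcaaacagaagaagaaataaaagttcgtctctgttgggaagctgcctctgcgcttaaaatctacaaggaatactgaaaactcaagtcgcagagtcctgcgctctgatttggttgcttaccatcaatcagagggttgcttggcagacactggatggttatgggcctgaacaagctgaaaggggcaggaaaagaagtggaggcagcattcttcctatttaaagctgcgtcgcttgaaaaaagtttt
Col11a1: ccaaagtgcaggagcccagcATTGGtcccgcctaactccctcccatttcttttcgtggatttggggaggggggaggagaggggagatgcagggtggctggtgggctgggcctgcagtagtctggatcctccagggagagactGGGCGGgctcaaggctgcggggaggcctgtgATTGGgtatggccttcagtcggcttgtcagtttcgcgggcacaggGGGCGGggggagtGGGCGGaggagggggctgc
In Col1a2 the match to CCAAT was on the other strand and began 221 bases before the annotated start, and TATAAA began 170 bases before it. Col11a1 held 2 matches to CCAAT, both on the other strand, and 3 to GGGCGG, the nearest of them 19 bases before the annotated start. On either strand, CCAAT occurred in 34.0% of the 33469 windows of this length in the table, TATAAA in 12.9% and GGGCGG in 30.5%. The bases G and C made up 58.4% of the window of Col1a2, 44.8% of that of Col5a2 and 65.6% of that of Col11a1. A match describes letters only.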

How the data were processed

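After trimming (FASTX-Toolkit) and alignment (TopHat2), the authors turned the uniquely mapped reads of each gene into FPKM, deposited with 2 decimals for each rat and with no scaling between rats stated. The processing notes name GRCh38 as the build, although the gene identifiers are those of Ensembl for the rat, and the annotation release is not given in the sources used here. The authors used edgeR on counts, but FPKM are not counts, so limma took its place here, on log2(FPKM + 0.1) of genes averaging 0.1 FPKM or more, with a variance trend and Benjamini-Hochberg adjustment over every gene tested. Sums and ratios were compared by exact permutation over rats. The labels name separate rats, so p-values measure the spread between rats. Total read numbers were not used, so the depth behind an FPKM value is unknown. In the table, 2 further columns were not used, since their names match no sample. No pair of rats shared more than 2.54% of identical values above 0.

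Of each gene list, the text names up to 4 DEGs with the largest change in each direction and no overlap, and the most abundant gene. Besides these it names all fibrillar collagen genes, 4 markers and the nearest profiles. Other genes, neighbours included, are marked as chosen after their values were seen. The members and lists were chosen with earlier results of these data known. Tried as alternatives were pseudocounts of 1 and 0.01, other minimum means (none, 1 FPKM), quantile normalization and median scaling, limma with a robust prior and without trend, DEGs of any fold change, and leaving out each rat. The fit was tested on simulated data. Calculations used limma 3.58.1 under R 4.3.3, and scipy 1.17.1, pandas 2.3.3, numpy 2.4.6 and matplotlib 3.10.9 under Python 3.11.15.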

Additional observations from a re-analysis of the deposited data

How the results depend on the processing

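Col1a1, Col3a1 and Col5a2 were called higher in the main analysis and under each of the 15 alternatives, with adjusted p-values from limma of at most 0.0376, 0.0331 and 0.0368. The number of fibrillar collagen genes called higher, 5 in the main analysis, became 3 without the minimum of 0.1 FPKM and with quantile normalization, and ran from 3 to 6 when 1 rat was left out. The 1 called lower, Col27a1, became 0 with a pseudocount of 1, without the minimum and without trend, and ran from 0 to 1 when 1 rat was left out. Over all genes, 1381 higher and 139 lower became 462 and 72 with a pseudocount of 1, 846 and 78 without the minimum, 854 higher with a mean of at least 1 FPKM, 826 higher with median scaling, 456 and 228 with quantile normalization, and 2518 and 288 without a limit on the fold change. Leaving out 1 rat gave 740 to 1831 higher and 81 to 160 lower. Higher genes made up 90.9% of the DEGs, 82.0% with median scaling and 66.7% with quantile normalization. The cause was not tested.

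The sign of Col24a1 turned with median scaling (-0.031) and quantile normalization (-0.37), and that of Lrat when single rats were left out (-0.19 to 0.026). The log2 difference of Col1a1 to Col1a2, 1.37 in the main analysis, became 3.34 with 0.1 added to each FPKM, which is larger than every CL value of Col1a2. Over its alternatives the log2 difference of the sum ran from 2.14 to 2.88, and those of the other chain ratios from -2.28 to -1.63 for Col3a1 to Col1a1, -3.27 to -2.70 for Col5a1 to Col1a1, -2.49 to -1.84 for Col5a2 to Col1a1 and -0.86 to -0.74 for Col5a1 to Col5a2. Most of these leave out 1 rat, which can move a mean only within the spread of its 3 rats. No paired analysis was possible because the groups share only the number 5, which names a rat. With values rounded to 2 decimals, genes near 0.01 FPKM are known only roughly.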

Other observations

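Some genes that act on collagen did not follow the order of the FL rats seen for the collagen chains. They were picked out after their values had been seen. Pcolce stood at 44.8 FPKM in FL2, 19.0 in FL5 and 29.8 in FL12 (2.59 to 5.20 FPKM in the CL rats), with FL2 highest, while FL2 was the lowest FL rat for Col1a1. P4hb stood at 420 FPKM in FL2, 352 in FL5 and 256 in FL12 (204 to 246 FPKM in the CL rats), and Ppib, which encodes a prolyl isomerase of the same compartment, read 140, 97.3 and 80.7 FPKM (64.6 to 83.9 FPKM in the CL rats). The macrophage receptor gene Marco had the same order, at 79.0, 43.9 and 31.5 FPKM (8.74 to 14.1 FPKM in the CL rats). Of all 1381 genes called higher, FL2 was the highest FL rat in 12.4%, and of all genes tested in 21.2%. Pcolce and Marco were called higher, and P4hb and Ppib were not.

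Col2a1, the fibrillar collagen gene of cartilage that was not among the 10, was listed at 0 in all rats but FL5, where it was at 0.01 FPKM. It and the next 2 genes were picked out after their values had been seen. Col27a1, the collagen gene that was lower in the FL group, lies in RefSeq between Kif12, a kinesin gene, and Orm1, which encodes an acute-phase plasma protein. Kif12 was at 0.29 to 0.41 FPKM in CL rats and at 1.62 to 2.53 in FL rats (log2 fold change 2.29, adjusted p = 0.00262 from limma). Orm1 was at 166 to 254 FPKM in CL rats and reached 3920 FPKM in FL2, 296 in FL5 and 895 in FL12 (adjusted p = 0.0885).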
